A study of Mus musculus with 8 samples.

Results

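The endogenous opioid system and its relative, the nociceptin system, were examined in the hypothalamus (HT) of adult male C3H/HeN mice after maternal separation (MS). The members were 3 genes of peptide precursors (*Penk*, *Pdyn* and *Pnoc*) and 4 genes of receptors (*Oprl1*, *Oprm1*, *Oprd1* and *Oprk1*). They were chosen by name and not by a cutoff on a measured value, though earlier results of these data were known. On the array 12 of 55681 probes carried 1 of these 7 names, where the older symbol Penk1 was taken as *Penk*. The MS group held 4 mice that were taken from their dam every day from postnatal day (PND) 2 to 14 while the dam was exposed to unpredictable stress, and the control group held 4 mice reared without this. Mice of both groups were weaned on PND 21, worked for a palatable milk reward in operant cages as adults, and were food-deprived before sacrifice. The whole HT was dissected and its RNA was hybridized with 1 dye (Cy3) on 1 array per mouse, so that all cell types of the tissue contributed to a signal. The question was whether these genes differ in the HT of adult mice that had been separated as pups.

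Opioid peptides are cut from large precursor proteins. *Penk* encodes proenkephalin, the source of Met- and Leu-enkephalin, *Pdyn* encodes prodynorphin, the source of the dynorphins and neoendorphins, and *Pnoc* encodes prepronociceptin, the source of nociceptin. Enkephalins act mainly on the delta receptor (*Oprd1*) and the mu receptor (*Oprm1*), dynorphins on the kappa receptor (*Oprk1*), and nociceptin on its own receptor (*Oprl1*), which does not bind the classical opioids with high affinity. All 4 receptors couple to inhibitory G proteins and dampen the activity and the transmitter release of the neurons that carry them. In the HT these peptides are known for roles in feeding, in the reward value of food and in the control of stress and reproductive hormones.

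The following 3 probes lie in protein-coding sequence and show what the array read. The opening codons of an opioid peptide fall within the first, a turn of the mu receptor that is conserved among receptors of its class within the second, and the end of the nociceptin receptor within the third. The sequences are those of the array files, 5′ to 3′ on the mRNA strand, and their positions are on build mm9.
*Pdyn* probe A_66_P123898, chr2:129513968-129514027, minus strand: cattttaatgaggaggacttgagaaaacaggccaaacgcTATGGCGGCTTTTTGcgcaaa
*Oprm1* probe A_51_P100309, chr10:3516154-3516213, minus strand: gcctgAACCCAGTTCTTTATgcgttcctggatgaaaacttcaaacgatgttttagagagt
*Oprl1* probe A_55_P2066598, chr2:181453983-181454042, plus strand: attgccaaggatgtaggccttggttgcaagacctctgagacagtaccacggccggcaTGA
In the *Pdyn* probe the capitals mark the codons for tyrosine, glycine, glycine, phenylalanine and leucine, the core that prodynorphin's opioid peptides share with Leu-enkephalin. The codons just before the capitals, aaacgc, encode lysine and arginine, the kind of basic pair at which prohormone convertases cut. Among the 55681 probes, 4 (0.00718%) encode this core, with leucine or methionine at its end, in any of 3 frames. In the *Oprm1* probe the capitals mark the codons of the NPxxY motif (asparagine, proline, valine, leucine, tyrosine) in the last membrane-spanning helix. This motif can be read in any of 3 frames in 255 probes (0.458%). In the *Oprl1* probe the capitals mark the stop codon that ends the only frame without an earlier stop.

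No member passed the test between the MS and the control group. Of the 12 probes, 11 were well above background on all 8 arrays and were tested, and they covered all 7 genes. None of the 11 had an adjusted p under 0.05 in limma, as was also true of all 37313 tested probes (0% called). None of the 11 had an unadjusted limma p under 0.05 either, against 1220 of all tested probes (3.27%). The values of the groups overlapped for all 11 probes, and they did not overlap for 761 of 37296 probes with a value on every array (2.04%). Shares this small give few probes or none among 11, so neither count sets the members apart. A value is the log2 of the background-corrected signal minus the 75th percentile (P75) of the array, and a difference is MS minus control. The 95% confidence intervals of the 11 probes lay between 0.736-fold and 1.27-fold of the control level. Since a probe's signal also depends on its sequence, levels were not set against each other between probes.

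**Figure D1:**
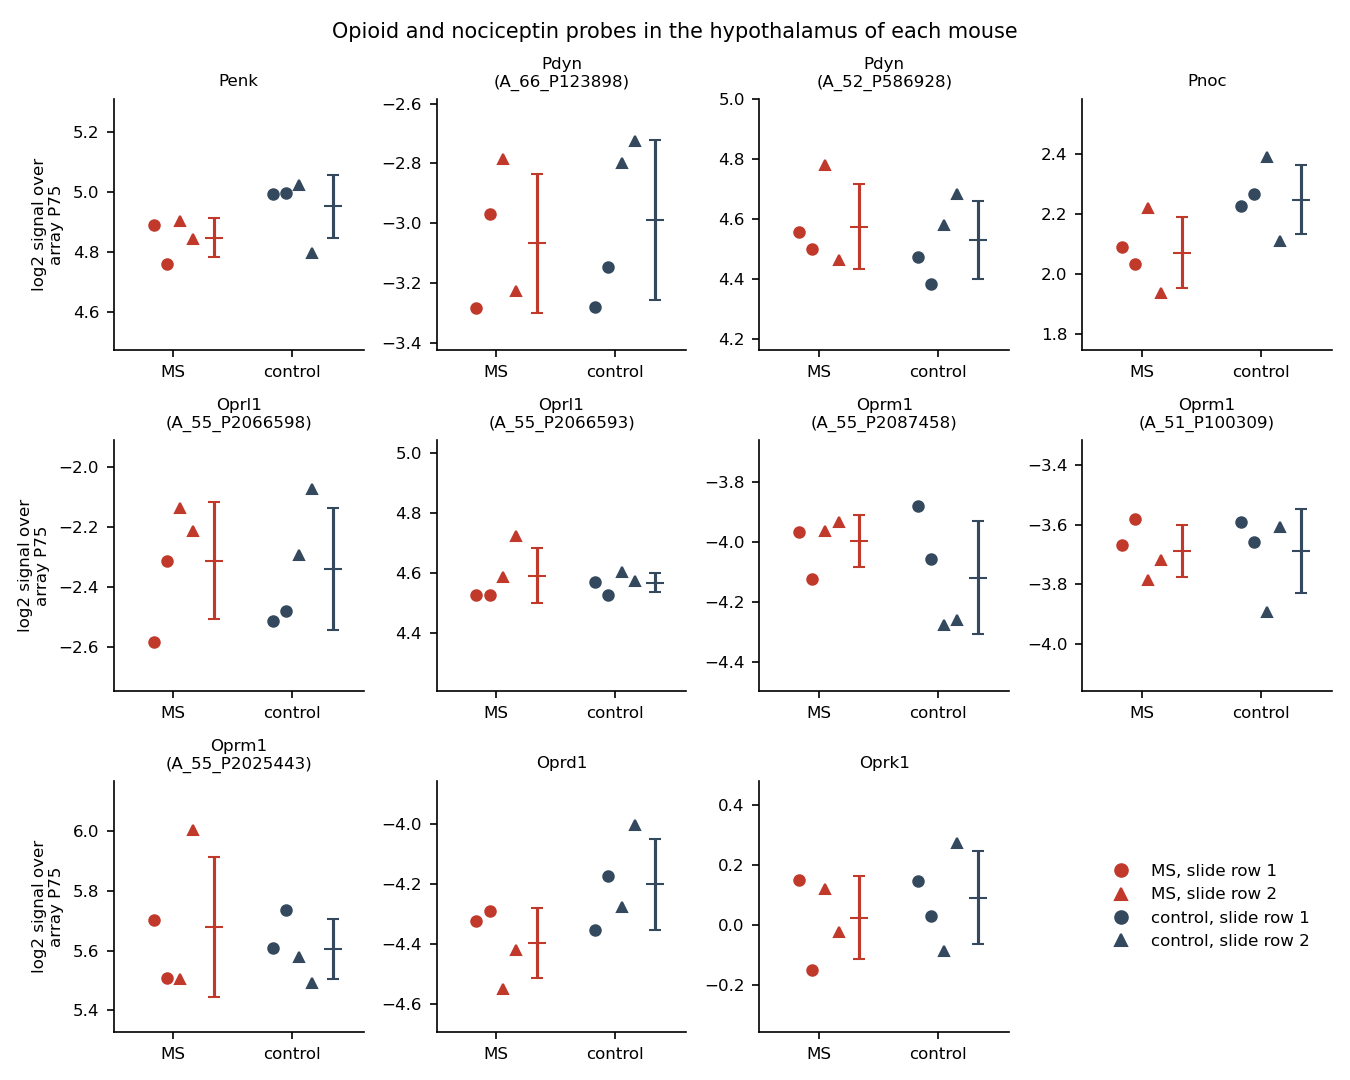
Signal of the 11 tested probes in each mouse, as log2 over the array's P75, with 1 point per mouse and the mean ± SD of the 4 mice beside the points. Circles are arrays of slide row 1 and triangles of slide row 2, all panels span the same log2 range, and the points of the MS and control groups overlap in every panel.

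Among the precursors, *Pnoc* had the most negative difference between MS and control mice. Its value was 2.09, 2.03, 2.22 and 1.94 in MS mice 5.3, 7.2, 7.1 and 7.6, against 2.23, 2.27, 2.39 and 2.11 in control mice 8.2, 8.4, 6.2 and 8.5. The groups overlapped because MS 7.1 lay above control 8.5, while the other 3 MS mice lay below every control mouse. The means were 2.07 ± 0.12 in MS mice and 2.25 ± 0.12 in control mice (SD, n = 4 each). The difference was -0.18 (standard error 0.084, 95% CI -0.37 to 0.02), which is 0.884-fold, and it did not pass the test (adjusted p = 0.976 in limma). An exact two-sided permutation test of this probe alone gave p = 0.0571. Within the slide rows it was -0.19 (row 1) and -0.17 (row 2), and it was negative in each of 20 other settings of the analysis (-0.23 to -0.13). Some of these settings change only the test and leave the difference as it is. In whole tissue, fewer *Pnoc* neurons and less *Pnoc* mRNA per neuron cannot be told apart. The probe lies at chr14:66020505-66020564.

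*Penk* gave a bright and even signal. It was 4.888, 4.759, 4.902 and 4.841 in MS mice 5.3, 7.2, 7.1 and 7.6, against 4.994, 4.997, 5.022 and 4.795 in control mice 8.2, 8.4, 6.2 and 8.5. Control 8.5 lay away from the other 3 control mice, which were all above every MS mouse, and itself lay among the MS mice. The difference was -0.10 (standard error 0.070, 95% CI -0.26 to 0.06, adjusted p = 0.976 in limma), and the exact permutation p was 0.143. Without control 8.5 the difference was -0.16 and the unadjusted limma p was 0.0314, with an adjusted p of 0.999 in the same fit. That mouse was singled out after its value was seen. Leaving out any other mouse instead gave a difference of -0.12 to -0.07, with an unadjusted limma p of 0.164 to 0.350. With all mice, the difference was -0.17 in row 1 and -0.04 in row 2, the row that holds control 8.5. The spread of *Penk* within the groups (SD 0.087) was smaller than that of most probes, at the percentile 22.1 of all tested. Its probe lies at chr4:4060724-4060783.

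*Pdyn* was read by 2 probes, which gave differences of opposite sign and close to 0. On the coding probe shown above, the value was -3.28, -2.97, -2.79 and -3.23 in MS mice 5.3, 7.2, 7.1 and 7.6, against -3.28, -3.15, -2.80 and -2.73 in control mice 8.2, 8.4, 6.2 and 8.5. The groups covered nearly the same range, and the difference was -0.08 (standard error 0.16, 95% CI -0.44 to 0.28, adjusted p = 0.978 in limma). On the brighter probe, A_52_P586928 at chr2:129512323-129512382, the value was 4.56, 4.50, 4.78 and 4.46 in MS mice 5.3, 7.2, 7.1 and 7.6, against 4.47, 4.38, 4.58 and 4.68 in control mice 8.2, 8.4, 6.2 and 8.5. MS 7.1 was the highest of all 8 mice and control 8.4 the lowest. The difference was 0.05 (standard error 0.094, 95% CI -0.17 to 0.26, adjusted p = 0.978 in limma). Over the 8 mice the values of both probes had a Pearson's r of 0.73, with MS 7.1, control 6.2 and control 8.5 high on each.

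Among the receptors, *Oprd1*, the delta receptor, had the most negative difference. Its value was -4.32, -4.29, -4.55 and -4.42 in MS mice 5.3, 7.2, 7.1 and 7.6, against -4.35, -4.18, -4.28 and -4.00 in control mice 8.2, 8.4, 6.2 and 8.5. MS 7.1 and MS 7.6 were the lowest mice and control 8.5 the highest, while MS 5.3 and MS 7.2 lay between control mice. The difference was -0.19 (standard error 0.094, 95% CI -0.41 to 0.02), or 0.874-fold, and it did not pass the test (adjusted p = 0.976 in limma, exact permutation p = 0.114). Within row 2 it was -0.35, and within row 1 it was -0.04. The processed signal of this probe was low, 26.4 to 51.7 in MS mice and 45.3 to 53.2 in control mice, and with another background correction (normexp) the difference was -0.0016. The probe lies at chr4:131666647-131666706.

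*Oprk1*, the kappa receptor, had values of 0.15, -0.15, 0.12 and -0.02 in MS mice 5.3, 7.2, 7.1 and 7.6, against 0.15, 0.03, -0.09 and 0.27 in control mice 8.2, 8.4, 6.2 and 8.5. Each group spanned most of the range of the other, and the difference was -0.07 (standard error 0.10, 95% CI -0.30 to 0.16, adjusted p = 0.976 in limma). Its probe lies at chr1:5592825-5592884.

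*Oprl1*, the receptor of nociceptin, had 2 probes with nearly the same small difference. On the coding probe shown above, the value was -2.58, -2.31, -2.14 and -2.21 in MS mice 5.3, 7.2, 7.1 and 7.6, against -2.52, -2.48, -2.29 and -2.07 in control mice 8.2, 8.4, 6.2 and 8.5, a difference of 0.03 (standard error 0.13, 95% CI -0.27 to 0.32). On this probe all 4 mice of row 2 were above all 4 mice of row 1, in both groups. The brighter probe, A_55_P2066593 at chr2:181455616-181455675, had the smallest spread of all members (SD 0.069), with 4.52 to 4.72 in MS mice and 4.53 to 4.60 in control mice. Its difference was 0.02 (standard error 0.062, 95% CI -0.12 to 0.16, adjusted p = 0.983 in limma). MS 7.6, the array with the lowest P75 of the 8, was the highest mouse on it.

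**Figure D2:**
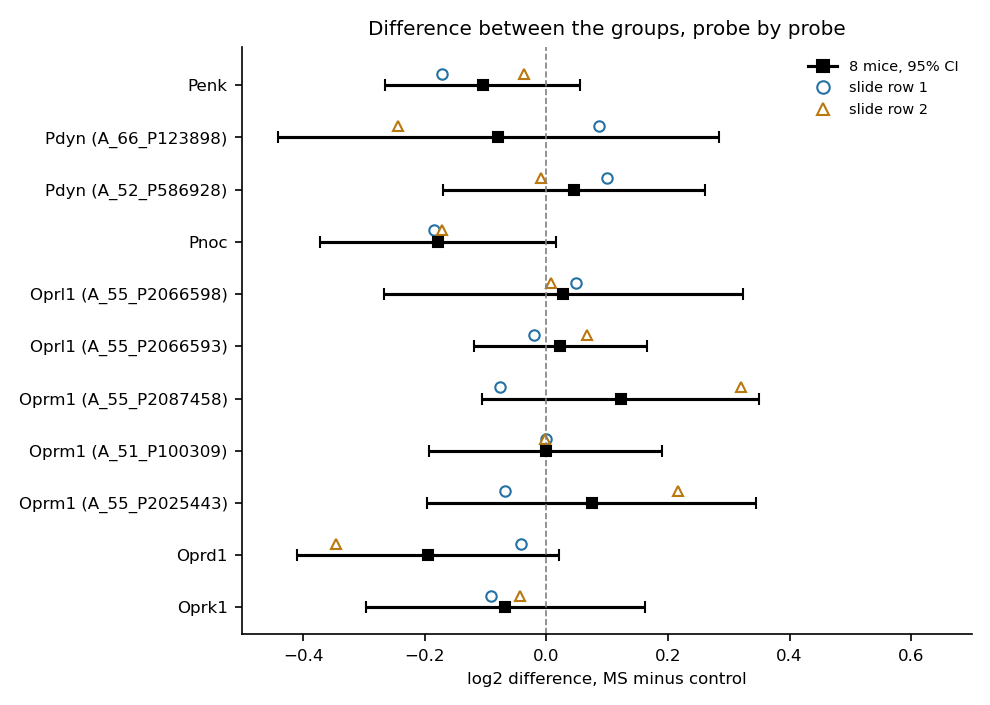
Difference between MS and control mice for each tested probe on the log2 scale, with its 95% confidence interval from limma (squares), and the difference within each row of the slide (circles for row 1, triangles for row 2; 2 mice per group in each row). All 11 intervals include 0, and the row values lie on the same side of 0 for *Penk*, *Pnoc*, *Oprd1*, *Oprk1* and 1 *Oprl1* probe.

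*Oprm1*, the mu receptor through which morphine acts, was the only member with 4 probes, and it is described probe by probe. 1 probe, A_55_P2087448 at chr10:3555486-3555545, was well above background on 0 arrays and was not tested. The coding probe, shown above with its NPxxY codons, was well above background on all 8 arrays. The processed signal of this probe was low, 43.0 to 84.5 over the 8 mice. Its value was -3.67, -3.58, -3.79 and -3.72 in MS mice 5.3, 7.2, 7.1 and 7.6, against -3.59, -3.66, -3.89 and -3.61 in control mice 8.2, 8.4, 6.2 and 8.5. The control values enclosed nearly all of the MS values, and the difference was 0.00 (standard error 0.083, 95% CI -0.19 to 0.19, unadjusted p = 0.992 in limma), and it was 0.00 within each row as well.

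This coding probe was spotted 10 times on each array, which gives the measurement error within an array. The SD of the 10 spots was 0.081 to 0.16 in MS arrays and 0.12 to 0.22 in control arrays. The standard error of the mean of the 10 spots was therefore 0.026 to 0.070 over the 8 arrays. The SD between mice within the groups was 0.12, larger than the standard error of the spots on every array and of the size of the spread of single spots. The other member probes had 1 spot per array, so that this error is part of the spread between their mice.

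**Figure D3:**
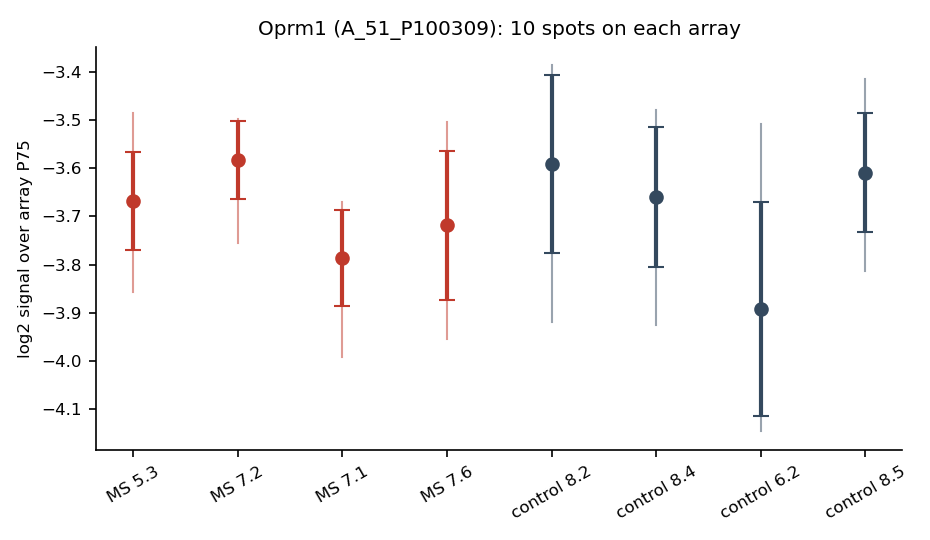
Coding probe of *Oprm1* on each array, as log2 signal over the array's P75. Points are the mean of 10 spots, thick bars the SD of the spots and thin lines their range; the means of the 4 MS arrays lie between -3.79 and -3.58, and those of the 4 control arrays between -3.89 and -3.59.

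The brightest *Oprm1* probe, A_55_P2025443 at chr10:3308332-3308391, holds a simple repeat. In 26 of its 60 bases it reads acacacacacacacacacacacacac, and 110 of the 55681 probes (0.198%) have a run of 8 or more CA or TG pairs (searched as CA, AC, TG and GT). Its value was 5.70, 5.51, 5.50 and 6.00 in MS mice 5.3, 7.2, 7.1 and 7.6, against 5.61, 5.74, 5.58 and 5.49 in control mice 8.2, 8.4, 6.2 and 8.5. MS 7.6 was the highest mouse, and the difference was 0.07 (standard error 0.12, 95% CI -0.20 to 0.35, adjusted p = 0.976 in limma). Within row 2 it was 0.22, and within row 1 it was -0.07. Over the 8 mice this probe followed other probes with such a repeat. Its median Pearson's r was 0.637 with the 109 others and 0.0118 with 37186 probes without one. Of the 100 probes most like it, 20 held a repeat, against 0.292% of all. With the coding probe of *Oprm1* its r was -0.08. A high median r was not particular to this probe. The brighter *Oprl1* probe, which holds no repeat, had a median r of 0.622 with the 110 probes that hold one. Among the 100 probes most like that *Oprl1* probe, 0 held a repeat. For *Pnoc* the median r with the repeat probes was -0.578. All these values come from the same 8 arrays and are given as a description.

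**Figure D4:**
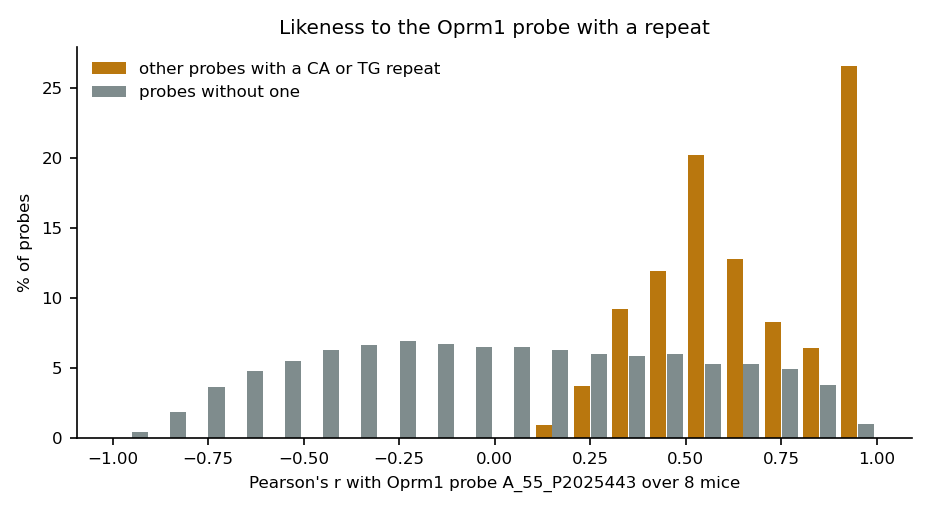
Pearson's r, over 8 mice, between the repeat-holding *Oprm1* probe and all other tested probes, as the percentage of probes in each step of 0.1. Of the 109 other probes with a CA or TG repeat 26.6% had an r above 0.9, against 0.96% of the probes without one.

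The last tested *Oprm1* probe, A_55_P2087458 at chr10:3551689-3551748, is assigned by the array annotation to another transcript of the gene. The processed signal of this probe was low as well, 37.1 to 65.4 over the 8 mice. Its value was -3.97, -4.12, -3.96 and -3.93 in MS mice 5.3, 7.2, 7.1 and 7.6, against -3.88, -4.06, -4.28 and -4.26 in control mice 8.2, 8.4, 6.2 and 8.5. The MS mice were close together, and the control mice of row 2 were the lowest of all. The difference was 0.12 (standard error 0.099, 95% CI -0.11 to 0.35, adjusted p = 0.976 in limma), with 0.32 in row 2 and -0.08 in row 1. Its r was 0.25 with the coding probe and 0.47 with the repeat-holding probe. For comparison, the 2 probes of *Oprl1* had an r of 0.47.

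It was then examined whether the members varied together among the mice, whatever their group. Each gene was represented by its brightest tested probe, which for *Oprm1* is the probe with the repeat. None of the 21 pairs was related after adjustment over the 21. The closest pair was *Penk* and *Pnoc*, with a Pearson's r of 0.83 (exact permutation p = 0.0136, adjusted p = 0.286) and a Spearman's rho of 0.88 (exact permutation p = 0.00724, adjusted p = 0.152). Control 6.2 was the highest mouse for both genes, and the MS mice other than 7.1 and control 8.5 were low for both. Without MS 7.2 and control 6.2, the mice farthest from the median of *Penk*, r was 0.73, and with the mean of each group removed it was 0.73 as well. After quantile normalization the pair had an r of 0.91 (exact permutation p = 0.000918, adjusted p = 0.0193), and it was the only pair to pass. Its rho in that setting was 0.83 and did not pass (exact permutation p = 0.0154, adjusted p = 0.323). With normexp background correction r was 0.77 and rho was 0.60 (exact permutation p = 0.132 for rho). With the authors' table r was 0.76, and 0.32 without the farthest mice of that table. A row of the slide holds 4 mice, too few to give r within a row.

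The other 20 pairs ran from -0.58, for *Pdyn* with *Oprm1*, to 0.63, for *Oprl1* with *Oprm1*. The pair of *Oprl1* and *Oprm1* rested on single mice, since r was -0.81 without MS 7.2 and MS 7.6. Both extremes used the repeat-holding *Oprm1* probe. With the coding probe in its place, r was -0.41 for *Oprl1* with *Oprm1* and -0.35 for *Pdyn* with *Oprm1*. The nociceptin peptide and its receptor, *Pnoc* and *Oprl1*, had an r of -0.32, and *Pdyn* and its receptor *Oprk1* an r of 0.43. *Penk* had an r of -0.14 with *Oprd1*, and of -0.79 with the mean of each group removed, which was not tested. With *Oprm1*, *Penk* had an r of 0.09 on the repeat-holding probe and of -0.47 on the coding probe. None of these pairs of ligand and receptor passed (adjusted p = 0.986 each, exact permutation test).

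**Figure D5:**
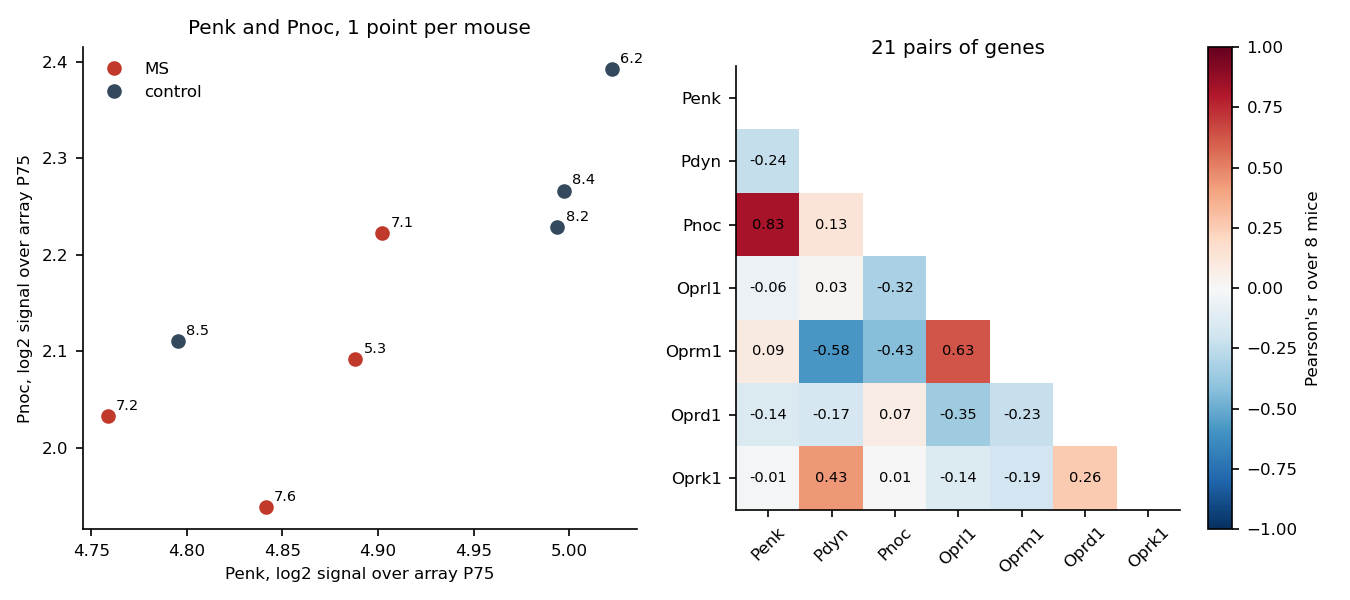
Left, *Pnoc* against *Penk* in the 8 mice, as log2 signal over the array's P75, with the number of each mouse. Right, Pearson's r over the 8 mice for the 21 pairs of the 7 genes, where *Penk* with *Pnoc* (0.83) is the highest and *Pdyn* with *Oprm1* (-0.58) the lowest. *Oprm1* is shown by its repeat-holding probe.

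For each member, the 3 genes with the most similar values over the 8 mice were looked up among 16599 named genes. *Penk* was most like *Micall1*, *Glra1* and *Acsm5* (Pearson's r 0.94 each), and *Pdyn* most like *Zfp36l2* (0.97), *Gpr155* and *Tlr12* (0.95 each). *Pnoc* was most like *Ift81* (0.96), *Tent5c* and *Tmem181a* (0.95 each). *Oprl1* was most like *Tmed3* (0.99), *Usp32* (0.98) and *Tmbim4* (0.97). *Oprd1* was most like *Nemp2*, *Slc38a4* and *Il22* (0.93 to 0.94), and *Oprk1* most like *Adrb3* (0.97), *Cyp2c55* and *Rogdi* (0.96 each). The repeat-holding probe of *Oprm1* was most like those of *Oacyl*, *Pdcd4* and *Lhx6* (0.99 each), and these 3 probes hold a CA or TG repeat too. The coding probe of *Oprm1* was most like *Gm3893*, *Zfp53* and *Gucy1a2* (0.91 each). With 16599 genes and 8 mice, high values of r arise for any gene, so these names are a description.

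The members act within a longer pathway, of which 36 further genes had been listed and all 36 were measured. None passed the test after adjustment over all probes in limma. Their median difference was 0.04, with 24 genes above 0 and 12 below, against a median of 0.02 and 57.9% above 0 among 16604 named genes. Unadjusted p was under 0.05 for 2 of the 36 genes, *Mme* and *Cacna1b*, against 426 of the 16604 named genes (2.57%). *Pomc*, the precursor of beta-endorphin, averaged 6.01 ± 0.32 in MS mice and 6.15 ± 0.43 in control mice (SD, n = 4 each), with a difference of -0.14 (standard error 0.23).

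Among the 6 genes of precursor processing, the smallest p in each direction belonged to *Cpe*, carboxypeptidase E, with a difference of 0.08, and *Pcsk1*, prohormone convertase 1, with -0.05. Among the 4 peptidases that break the peptides down these were *Mme*, the enkephalin-degrading neprilysin, with 0.31 (standard error 0.13, adjusted p = 0.976 in limma), and *Ece2*, endothelin-converting enzyme 2, with -0.06. Among the 13 G proteins and effectors they were *Cacna1b*, the pore of N-type calcium channels, with 0.28 (standard error 0.11, adjusted p = 0.976 in limma), and *Gnaz*, an inhibitory G protein subunit, with -0.05.

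Among the 8 genes of receptor desensitization and trafficking they were *Rgs4*, which shortens G protein signaling, with 0.13 and *Rtp4*, a chaperone of opioid receptors, with -0.07. Among the 4 regulators of transcription they were *Creb1* with 0.04 and *Fosb* with -0.04. *Gnai1*, an inhibitory G protein subunit named after its values were seen, was the only gene of the list whose groups did not overlap, against 2.04% of all probes. It averaged 2.62 ± 0.046 in MS mice and 2.51 ± 0.024 in control mice (SD, n = 4 each; difference 0.11, adjusted p = 0.976 in limma).

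Because enkephalin and dynorphin mRNA is abundant in the striatum and several members occur in other neighboring tissue, marker genes of these tissues were set beside the members. All 15 markers of the HT were tested, and 14 of them were well above background on all 8 arrays. Of the 15, 8 were lower and 7 higher in MS, with a median difference of -0.02. Their summed signal was 438, 407 and 456 times the P75 in MS 5.3, 7.2 and 7.6, below every control mouse (495 to 561). MS 7.1 was above them all (565). As a mean of log2 values, the markers were at 2.73, 2.69 and 2.88 in MS 5.3, 7.2 and 7.6, against 2.89 to 3.09 in control mice. A sum gives most weight to the brightest markers, and single markers went both ways. The differences were -1.44 for *Hcrt*, -0.60 for *Trh* and -0.45 for *Pmch*. They were 0.19 for *Npy* and 0.22 for *Hdc* and *Agrp*, all named after their values were seen. MS 5.3, 7.2 and 7.6 also lay below every control mouse for *Pnoc*. Whether the share of HT neurons in the dissected tissue plays a part in the *Pnoc* values was not tested. The 10 striatal markers gave a summed signal of 33.9 to 35.3 times the P75 in MS mice and 34.0 to 35.7 in control mice, with 8 of 10 lower in MS and a median difference of -0.08. The 7 thalamic markers summed to 7.27 to 7.84 in MS mice and 6.93 to 7.80 in control mice. The 5 measured markers of cortex, hippocampus and amygdala summed to 0.26 to 0.54 in MS mice and 0.24 to 0.41 in control mice, and *Slc17a7*, the cortical glutamate transporter, was above background on 0 arrays. The 7 measured pituitary markers summed to 18.7 to 29.5 in MS mice. In control mice they summed to 23.8 (8.2), 16.5 (8.4) and 31.2 (8.5), near the MS range, and to 258 in control 6.2. With control 6.2 included, 7 of 7 were lower in MS, with a median difference of -0.59. Their differences without that mouse were not computed. Without control 6.2 the difference was -0.13 for *Pnoc* and -0.08 for *Penk*.

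None of the 28 relations between a member and the mean of the striatal, thalamic, cortical or pituitary markers passed after adjustment. *Penk* had an r of 0.53 with the striatal markers (exact permutation p = 0.178), and *Pnoc* an r of 0.22 (exact permutation p = 0.594). *Pdyn* had an r of -0.77 with them (exact permutation p = 0.0262, adjusted p = 0.367), and -0.69 without MS 7.1 and control 8.5. The strongest relation was that of the repeat-holding *Oprm1* probe with the thalamic markers, with an r of 0.91 (exact permutation p = 0.00789, adjusted p = 0.221). It was 0.59 without control 8.4 and MS 7.6, and -0.10 when the coding probe stood for *Oprm1*.

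4 genes mark HT neurons that also make dynorphin, and bear on *Pdyn*. They are *Avp* and *Hcrt*, which are also among the HT markers above, and *Tac2* and *Kiss1*. These are the genes of vasopressin, orexin, neurokinin B and kisspeptin. Their summed signal was 113 to 189 times the P75 in MS mice and 139 to 198 in control mice. MS 5.3 and MS 7.2 had the lowest sums of all mice, and their *Pdyn* values on the brighter probe lay within the range of the control mice. Of the 4, 2 were higher and 2 lower in MS, and the lowest was *Hcrt* with -1.44 (standard error 0.62, adjusted p = 0.976 in limma), named here after its value was seen. Whether the share of these neurons in the dissected tissue plays a part in the *Pdyn* values was not tested.

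All 8 arrays lay on 1 slide and measured 34074 to 38720 probes well above background in MS mice and 34935 to 39598 in control mice. Their P75 was 566 to 1012 in MS mice and 853 to 963 in control mice, with MS 7.6 the lowest. No member spot was saturated. The mice are treated as independent, although the labels number most mice of a group alike before the dot, without saying what this stands for. Per the paper, litters were assigned to MS or control, and weaned mice were caged by condition. The labels name neither litter nor cage, so the standard errors, intervals and p-values do not account for them.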

How the data were processed

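RNA of the HT of 4 MS and 4 control mice was measured, with groups taken from the sample titles. The scanner file that the authors deposited for each array, made with Agilent Feature Extraction 10.10.1.1, holds a processed intensity, which is background-subtracted and gradient-corrected. The deposited series table holds log2 values per probe. The processing notes name limma for it, and the sources used here do not say how it was normalized. Per the file headers, flags mark spots well above background and probe positions are on mm9. The array design number there differs from that in the methods.

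Control and outlier spots were left out, log2 intensities of the 59305 spots were averaged to 55681 probes, and each array's P75 was subtracted. A probe was tested if at least 4 of 8 arrays had it well above background, with lmFit and eBayes (limma 3.58.1, R 4.3.3), two-sided, with Benjamini-Hochberg adjustment over all tested probes at 0.05 and 95% confidence intervals. The fit was tested on simulated data with known shifts many times larger than any member difference. That check does not show whether differences of the members' size could be found. Relations over mice used exact permutation (Python 3.11.15, numpy 2.4.6). RefSeq accessions or symbols named the other genes (25928 probes stayed without a name), and the brightest tested probe stood for a gene. Motifs were searched on the probes' own strand. The number of arrays limits the precision.

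The members, gene lists and tests were chosen with earlier results of these data known. All member probes are reported. Of the pathway list the text names *Pomc* and, in either direction, the gene with the smallest p of each class, and for each member the 3 genes most like it. Alternatives were quantile and median scaling, normexp with an offset of 50, the deposited log2 table, other filters on dim probes, a block for the slide row, a random block for the mouse number's first part, a trended robust variance, weighted arrays, either slide row alone and 1 mouse left out at a time.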

Additional observations from a re-analysis of the deposited data

Results flagged for a closer look

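The *Penk* value of control mouse 8.5, 4.795, lay far below those of the other 3 control mice (4.994, 4.997 and 5.022) by Dixon's criterion for 4 samples. It lay within the range of the MS mice (4.759 to 4.902). Of 22 sets tested, a group of 4 mice on 1 of the 11 probes each, it was the only such value, and chance alone marks about 1 in 20 sets.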

How the results depend on the processing

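No member probe passed the test in limma in any of 20 other settings, and 190 of 220 differences kept their sign. *Penk*, *Pnoc*, *Oprd1* and *Oprk1* kept theirs in all of them, and the 30 others belonged to the probes of *Pdyn*, *Oprl1* and *Oprm1*. A block for the slide row, a trended robust variance and other filters on dim probes change the test but not the difference. A sign could therefore not change in those settings. *Oprm1* coding probe A_51_P100309 was 0.00881 with quantile and 0.0148 with median scaling, 0.0514 with normexp, 0.051 with the authors' table, 0.0141 with array weights and 0.000143 in row 1. The repeat-holding probe A_55_P2025443 was -0.00375 with the authors' table, -0.0282 with array weights and -0.0680 in row 1, and A_55_P2087458 was -0.0761 in row 1. *Oprl1* probe A_55_P2066593 was -0.0211 after quantile normalization, -0.0209 in row 1 and -0.0458 with the authors' table. *Pdyn* probe A_66_P123898 was 0.0336 with array weights and 0.0863 in row 1, and A_52_P586928 was -0.00877 in row 2. Leaving out 1 mouse at a time gave -0.176 to 0.00881 for *Pdyn* A_66_P123898, -0.0228 to 0.0964 for *Pdyn* A_52_P586928, -0.0303 to 0.119 for *Oprl1* A_55_P2066598, -0.0211 to 0.0448 for *Oprl1* A_55_P2066593, -0.0689 to 0.0316 for *Oprm1* A_51_P100309 and -0.0329 to 0.133 for *Oprm1* A_55_P2025443. The same gave -0.126 (without control 6.2) to -0.00657 (without control 8.5) for *Oprk1*, with -0.00881 without MS 7.2, -0.245 (without control 8.2) to -0.128 (without control 8.5) for *Oprd1*, and 0.0693 (without control 6.2) to 0.202 (without control 8.2) for *Oprm1* A_55_P2087458, with 0.0756 without control 8.5. The lowest unadjusted limma p of *Oprd1* was 0.0185, with a random block for the mouse number's first part (consensus correlation -0.199), and that of *Pnoc* was 0.0293, without MS 7.1. It was 0.0311 for *Oprm1* A_55_P2087458, in row 2 alone, and 0.0314 for *Penk*, without control 8.5. Each is the lowest of the 20 settings. With that random block the unadjusted limma p of *Penk* was 0.0966, against 0.171 in the main fit, while its difference stayed at -0.10. That setting is therefore less cautious.

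Over all probes, 1 passed with that random block and 1 in row 2 alone, neither of them a member. Of the 21 pairs 1 passed after quantile normalization, and of the 28 relations to marker lists 1 passed with normexp, that of the repeat-holding *Oprm1* probe with the thalamic markers (r 0.93, exact permutation p = 0.000694, adjusted p = 0.0194). The cause of these changes was not tested. By Spearman's rho 0 pairs and 0 relations passed in any setting. The rho of that *Oprm1* probe with the thalamic markers under normexp was 0.88 (exact permutation p = 0.00724, adjusted p = 0.203). The *Oprm1* probe with 10 spots was put in place of the brightest one after seeing the data, and 0 pairs and 0 relations then passed (1 of each with an unadjusted exact permutation p under 0.05). No paired analysis was possible because the groups share no replicate numbers.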
